A study of Mus musculus with 2 samples.

Results

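The transcripts of 10 apolipoprotein genes (Apoa1, Apoa2, Apoa4, Apoa5, Apob, Apoc1, Apoc3, Apoe, Apoh and Apom) were followed in single-cell RNA-Seq (scRNA-Seq) of mouse hepatocytes before and during liver regeneration. The 10 genes were taken by symbol from the 27998 genes of the deposited tables, and all 10 were measured. Hepatocytes of C57BL/6 mice aged 10 to 12 weeks per the labels (the study's methods give a younger age at surgery) and kept on normal diet had been released with collagenase, either from undamaged liver (0 h) or from liver that was regrowing 48 h after partial hepatectomy (PHx), which removes most of the organ. No transgene or drug was used, and per the study's methods each library came from part of 1 mouse's hepatocyte preparation. With 1 library per group there was no replicate, so no p-value is given. Every interval below is an exact 95% interval that covers counting error only, and every difference between 0 h and 48 h is a difference between these 2 libraries.

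Apolipoproteins are the protein part of lipoprotein particles, which carry triglyceride and cholesterol in plasma, and the liver is their main source. Apob is the structural protein that each very-low-density lipoprotein particle is built on, while Apoa1 and Apoa2 are the main proteins of high-density lipoprotein. Apoe is the ligand through which remnant particles are taken up by liver receptors, Apoc3 inhibits and Apoa5 promotes the clearance of triglyceride by lipoprotein lipase, and Apom carries sphingosine 1-phosphate. Apoe is also known as a product of tissue macrophages. The remaining members are mainly known from hepatocytes and intestine, which does not exclude macrophages as a further source.

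Members lay on 6 chromosomes, and 6 of them lay in 2 clusters (GRCm38, GENCODE M21). On chromosome 9, Apoa1 (46228580 to 46230466), Apoc3 (46232933 to 46235636, minus strand), Apoa4 (46240696 to 46243459) and Apoa5 (46268633 to 46271919) lay within 43.34 kb. On chromosome 7, Apoe (19696109 to 19699188) and Apoc1 (19689481 to 19692660) lay on the minus strand within 27.61 kb that also held Apoc4 and Apoc2. Apoa2 lay on chromosome 1 (171225054 to 171226379), Apob on chromosome 12 (7977648 to 8016835), Apoh on chromosome 11 (108343354 to 108414396) and Apom on chromosome 17 (35128997 to 35132050, minus strand). Antisense transcripts overlapped Apoa4 (Gm47528 and Gm10680) and Apoa5 (Gm47544), and Apoh overlapped Prkca on the opposite strand and Gm11656 on its own strand. How the counting used strand is not given in the sources used here, so reads of these overlaps could not be assigned further.

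The stretches just before the starts of 3 genes of the chromosome 9 cluster are shown because these neighbours differed widely in their ratio between the libraries. They are plus-strand RefSeq promoter sequence (GRCm38.p6) cut at the first GENCODE exon of the gene, at chr9:46228380-46228579, chr9:46240594-46240695 and chr9:46268383-46268632, and capitals mark TATAAA, the letters of a TATA box. The Apoa4 stretch also overlaps an exon of Gm47528.
Apoa1: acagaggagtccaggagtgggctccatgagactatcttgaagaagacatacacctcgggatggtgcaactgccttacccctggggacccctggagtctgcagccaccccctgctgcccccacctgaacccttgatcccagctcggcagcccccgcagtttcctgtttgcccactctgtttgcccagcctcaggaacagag
Apoa4: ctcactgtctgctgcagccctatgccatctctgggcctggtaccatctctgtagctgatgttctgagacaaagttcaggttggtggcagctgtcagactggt
Apoa5: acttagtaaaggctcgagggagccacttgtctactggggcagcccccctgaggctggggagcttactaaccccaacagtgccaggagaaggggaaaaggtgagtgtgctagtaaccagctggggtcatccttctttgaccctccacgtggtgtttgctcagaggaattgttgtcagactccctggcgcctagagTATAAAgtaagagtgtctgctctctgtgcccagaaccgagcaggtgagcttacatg
RefSeq entries were present for 8 of the 10 members, Apoc1 and Apoc3 being those not matched. Both strands of the full windows (250 bases before to 50 after each listed start) were searched for 8 sets of letters. TATAAA was present for 4 of the 8 members (Apoa2, Apoa5, Apob and Apoe) and for 14.3% of all 27025 genes. GTTAAT, part of the site of the liver factor HNF1, was present for Apoe alone and for 7.49% of all genes, and CCAAT for Apoa2 alone and for 37.5%. No member held CAAAGTCCA, the core bound by HNF4 (0.451% of genes), TTCNNNGAA, the letters of a STAT site (8.13%), TGACGTCA, the cyclic AMP response element (1.77%), or the direct repeats named DR1 (0.0407%) and LXR repeat (0.0148%), which share their repeated letters with each other.

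The 0 h library held 59202 barcodes with a median of 1436 unique molecular identifiers (UMIs, each standing for 1 captured transcript) and the 48 h library 1586 barcodes with a median of 6838.5, so the libraries differed in depth and in the number of droplets deposited. The libraries shared 148 barcode sequences. Barcodes were divided by the share of mitochondrial (mt) UMIs after those carrying markers of other cell types had been set aside. At 0 h, 3863 barcodes had over 30% mt UMIs, 2293 had 2 to 30% and 52359 had under 2%, against 751, 198 and 511 at 48 h. The study left out cells with high mt content and possible doublets before its own analysis, a filter that was not applied here. In barcodes under 2% mt the median mt share was 0.529% at 0 h and 0.458% at 48 h. Whether these barcodes hold hepatocytes or RNA free in the droplets was not tested. Levels are given as CPM, UMI counts scaled to 1000000 non-mt UMIs, so that mt transcripts do not dilute the members and a level is a share of the captured non-mt RNA, not an amount per cell. The assay counts 1 UMI per molecule from its 3′ end whatever its length, so levels can be ranked between genes on this scale, although priming can differ between genes.

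The 10 members together made up 14.0% (14.0 to 14.0%) of non-mt UMIs in 0 h barcodes over 30% mt and 9.16% (9.13 to 9.18%) in those of 48 h. Below 2% mt the shares were 7.85% (7.84 to 7.85%) and 7.98% (7.95 to 8.01%). The 2 libraries thus differed in the summed share above 30% mt and lay close together below 2% mt. At 2 to 30% mt the shares were 9.39% at 0 h and 7.62% at 48 h.

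In 0 h barcodes over 30% mt the order of levels was Apoe, Apoa2, Apoa1, Apoc1, Apoc3, Apob, Apoh, Apoa5, Apom and Apoa4, and the intervals of no neighbours overlapped. Albumin (Alb), the main protein the liver secretes, stood at 44999 CPM there, and Apoe at 39883 CPM (39720 to 40047). The lowest member, Apoa4, stood at 96.4 CPM (88.5 to 105). In 48 h barcodes over 30% mt the order was Apoe, Apoa1, Apoa2, Apoc1, Apoc3, Apoa4, Apob, Apoa5, Apoh and Apom, with overlapping intervals for Apoa5 and Apoh. Apoa4 had moved from the last place to the sixth.

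**Figure D1:**
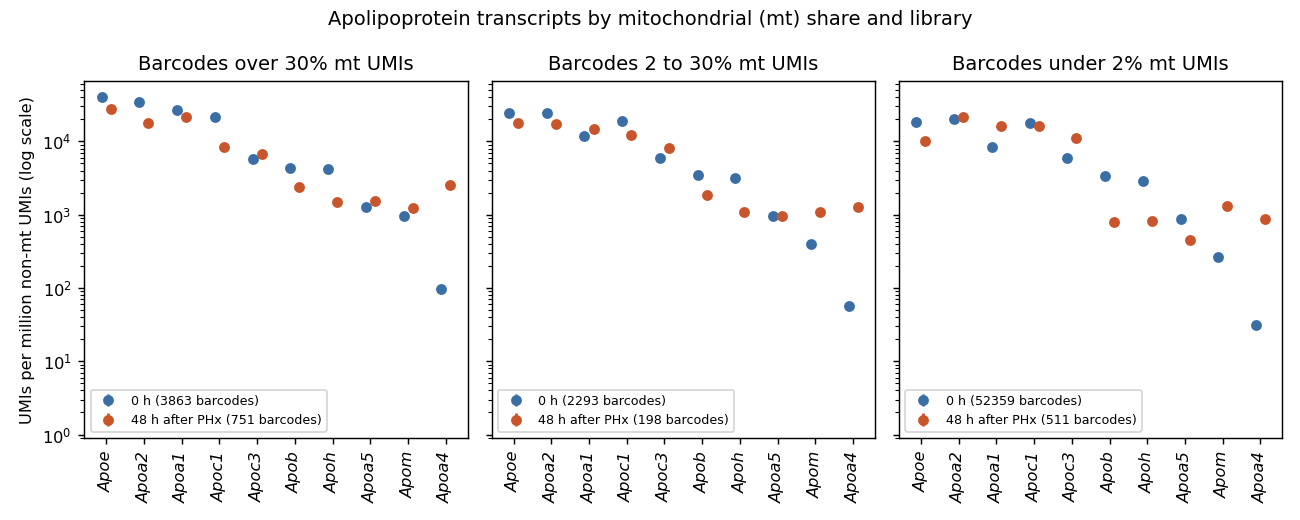
Levels of the 10 members (CPM of non-mt UMIs, log axis) in barcodes over 30%, 2 to 30% and under 2% mt UMIs at 0 h and 48 h after PHx, with exact 95% Poisson intervals that are mostly smaller than the points. Apoa4 is the lowest member at 0 h in all 3 panels and lies at 871 to 2522 CPM at 48 h.

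Between the libraries the widest gap was that of Apoa4, a lipoprotein component best known from intestine. In barcodes over 30% mt it stood at 96.4 CPM at 0 h and 2522 CPM (2478 to 2567) at 48 h, a log2 ratio of 4.71 (4.59 to 4.83). Below 2% mt the levels were 31.4 CPM (30.2 to 32.7) and 871 CPM (839 to 905), a log2 ratio of 4.79 (4.71 to 4.87). The 48 h level was above the 0 h level in each mt group, and the log2 ratio at 2 to 30% mt was 4.50 (4.31 to 4.69).

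The particle scaffold Apob and the phospholipid-binding Apoh were lower at 48 h in every mt group. Apob stood at 4360 CPM (4306 to 4414) at 0 h and 2409 CPM (2366 to 2453) at 48 h over 30% mt, a log2 ratio of -0.86 (-0.89 to -0.82). Below 2% mt it stood at 3384 CPM at 0 h and 800.1 CPM (769 to 832) at 48 h, a log2 ratio of -2.08 (-2.14 to -2.02). Apoh had log2 ratios of -1.46 (-1.50 to -1.42) over 30% mt, where its level was 4152 CPM at 0 h and 1510.0 CPM at 48 h, and -1.81 (-1.87 to -1.75) below 2% mt. The distance between the libraries was larger below 2% mt for both genes, and more so for Apob.

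Apoe, the receptor ligand, was also lower at 48 h in each mt group. Over 30% mt its level was 39883 CPM at 0 h and 27311 CPM (27165 to 27457) at 48 h, a log2 ratio of -0.55 (-0.56 to -0.54). Below 2% mt the levels were 18393 CPM and 10227 CPM (10114 to 10341), a log2 ratio of -0.85 (-0.86 to -0.83). It nevertheless made up 28.5% (28.4 to 28.6%) of all member UMIs at 0 h and 29.8% (29.69 to 29.96%) at 48 h over 30% mt, as the other 9 members together were lower too. Below 2% mt its share of member UMIs was 23.4% at 0 h and 12.8% (12.7 to 12.9%) at 48 h.

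The high-density lipoprotein members and the small C apolipoproteins differed in direction or size between mt groups. Apoa1 stood at 27136 CPM at 0 h and 21792 CPM at 48 h over 30% mt (log2 ratio -0.32, -0.33 to -0.31), but at 8423 CPM and 16230 CPM below 2% mt (0.95, 0.93 to 0.96). Apoa2 had a log2 ratio of -0.95 (-0.96 to -0.94) over 30% mt, with 34756 CPM at 0 h and 17970 CPM at 48 h, and of 0.08 (0.07 to 0.09) below 2% mt, where other scalings turned the sign. Apoc1 showed a log2 ratio of -1.34 (-1.36 to -1.33) over 30% mt, from 21510 CPM at 0 h to 8483 CPM at 48 h, and of -0.12 (-0.13 to -0.11) below 2% mt. For each of these genes the 48 h level relative to 0 h was lower in barcodes over 30% mt than in those under 2% mt.

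Apoc3 and Apoa5, which act in opposite ways on triglyceride clearance, had similar ratios over 30% mt and opposite ones below 2% mt. Apoc3 stood at 5669 CPM at 0 h and 6786 CPM at 48 h over 30% mt (log2 ratio 0.26, 0.24 to 0.28) and at 5851 CPM and 11015 CPM below 2% mt (0.91, 0.90 to 0.93). Apoa5 stood at 1266 CPM and 1551 CPM over 30% mt (0.29, 0.25 to 0.34) and at 870.9 CPM and 458 CPM below 2% mt (-0.93, -1.003 to -0.850). Apom, the sphingosine 1-phosphate carrier, had a log2 ratio of 0.35 (0.30 to 0.40) over 30% mt and 2.28 (2.23 to 2.33) below 2% mt, where it stood at 266 CPM at 0 h and 1296 CPM (1256 to 1337) at 48 h. The positive ratios of these 3 genes over 30% mt turned negative under the trimmed mean of M values (TMM, a scaling to the bulk of genes), at -0.29 for Apoc3, -0.26 for Apoa5 and -0.20 for Apom.

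The median log2 ratio of all 8623 genes with enough UMIs was 0.55 over 30% mt, against -0.43 for the 10 members. Of the members, 9 of 10 lay below the all-gene median there, and Apoa4 was the exception. At least 2-fold higher at 48 h over 30% mt was 1 member, where 30.5% of all genes were, and at least 2-fold lower were 2 members (Apoc1 and Apoh), where 5.22% of all genes were. TMM lowered the ratios of all genes there, so that 5 members (Apoa2, Apob, Apoc1, Apoe and Apoh) were at least 2-fold lower beside 13.9% of all genes, and 1 higher beside 14.0%. Below 2% mt the all-gene median was 0.04 and that of the members -0.02. There 2 members (Apoa4 and Apom) were at least 2-fold higher, beside 22.5% of all genes, and 2 (Apob and Apoh) at least 2-fold lower, beside 20.5%. Under TMM 4 members (Apoa5, Apob, Apoe and Apoh) were at least 2-fold lower there, beside 27.8% of all genes, and 2 higher, beside 16.3%.

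**Figure D2:**
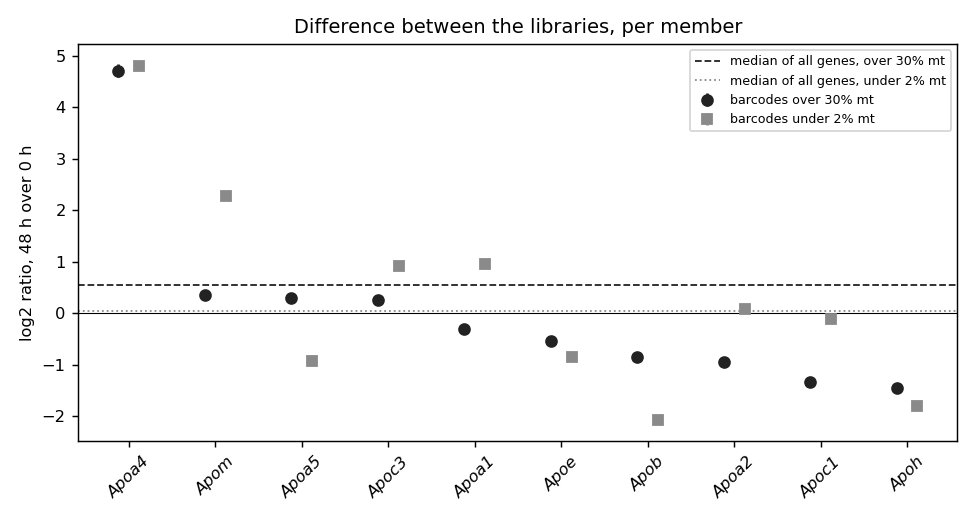
Log2 ratio of each member at 48 h over 0 h in barcodes over 30% mt (circles) and under 2% mt (squares), with exact 95% conditional binomial intervals mostly hidden by the points and the all-gene medians as broken lines. All members but Apoa4 lie below the upper broken line in barcodes over 30% mt, and Apoa1, Apoa2 and Apoa5 lie on opposite sides of 0 in the 2 mt groups.

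Within the 0 h library, 9 of 10 members were higher over 30% mt than under 2% mt, with a median log2 ratio of 0.65 against 0.06 for all genes. The ratio was 1.87 (1.83 to 1.91) for Apom, 1.69 (1.68 to 1.70) for Apoa1, 1.62 (1.48 to 1.75) for Apoa4 and 1.12 (1.11 to 1.12) for Apoe, and these 4 members were at least 2-fold higher beside 15.3% of all genes. None was at least 2-fold lower, beside 9.34%. Under TMM Apoe fell short of 2-fold at 0.94, which left 3 members at least 2-fold higher beside 11.9% of all genes, and none lower beside 13.4%. Apoc3 was the exception at -0.05 (-0.06 to -0.03), a sign that changed when the 20 most abundant genes were left out of the totals. The members were therefore unequal in how far they followed the mt share.

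At 48 h the same comparison had a median of 0.65 for the members and 0.60 for all genes. Again 4 members were at least 2-fold higher, beside 34.7% of all genes, but they were Apoa5 (1.76, 1.68 to 1.84), Apob (1.59, 1.53 to 1.65), Apoa4 (1.53, 1.47 to 1.59) and Apoe (1.42, 1.40 to 1.43). Apoc1 (-0.95, -0.97 to -0.94), Apoc3 (-0.70, -0.72 to -0.68) and Apoa2 (-0.27, -0.29 to -0.26) were lower over 30% mt, and Apom stood at -0.06, with the opposite sign when the 20 most abundant genes were left out. None was at least 2-fold lower, beside 6.54% of all genes. Under TMM the count was 2 higher (Apoa5 and Apob), beside 16.3% of all genes, and 2 lower (Apoc1 at -1.50 and Apoc3 at -1.24), beside 18.4%. Apoe and Apoa4 were at least 2-fold higher over 30% mt in both libraries on the CPM scale.

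Along the mt share the 0 h levels of Apoe and Apom were graded. Apoe stood at 18389 CPM below 1% mt, 26653 CPM at 10 to 20%, 37407 CPM at 30 to 40% and 41777 CPM at 40 to 50%, and was lower again at 35786 CPM at 60 to 80%. Apom went from 266 CPM below 1% mt to 1212 CPM at 60 to 80%. At 48 h Apoc1 went the other way, from 16399 CPM below 1% to 7876 CPM at 50 to 60% mt, while Apoe went from 10125 CPM to 29537 CPM over the same bins. In the 15 barcodes of 48 h over 80% mt Apoc1 was higher again and Apoe lower again, at 14071 CPM (12576 to 15695) and 20451 CPM (18640 to 22391). Median depth was 1213 non-mt UMIs over 30% mt and 1413 under 2% at 0 h, and 4293 and 5274 at 48 h.

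**Figure D3:**
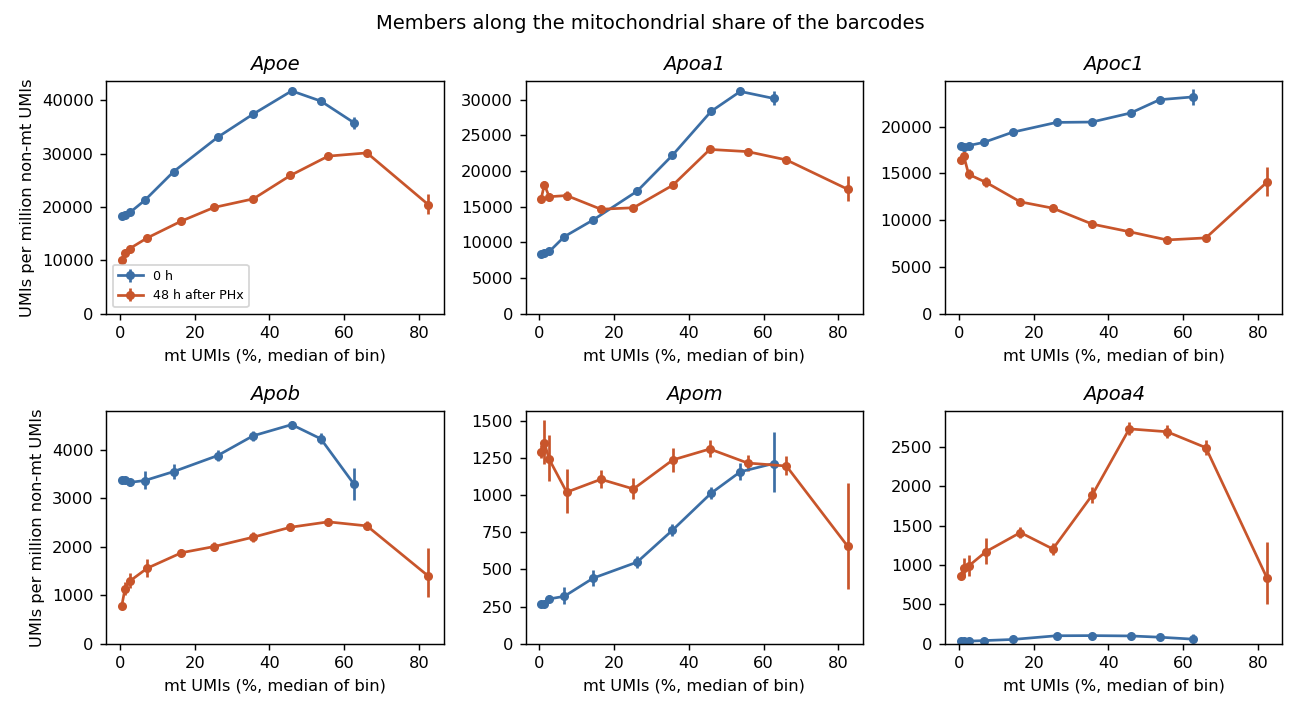
Levels of 6 members (CPM of non-mt UMIs) against the median mt share of each bin, at 0 h and 48 h after PHx, with exact 95% Poisson intervals and bins of at least 10 barcodes. Apoc1 at 48 h goes from 16399 CPM below 1% mt to 7876 CPM at 50 to 60% and back to 14071 CPM in the 15 barcodes over 80%, and the Apom curves meet near 1212 CPM at the highest 0 h bin.

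To compare single barcodes at 1 depth, each was thinned to 500 non-mt UMIs, which left out 75 of the 3863 barcodes over 30% mt at 0 h and none of the other groups named here. Apoe was then found in 100% of barcodes over 30% mt in both libraries, where 10% of 0 h barcodes had 13 UMIs or fewer and 10% had 27 or more. Apoa4 was found in 4.17% (3.56 to 4.86%) of 0 h and 56.5% (52.83 to 60.04%) of 48 h barcodes over 30% mt. Below 2% mt these shares were 1.59% and 35.4% (31.3 to 39.7%). In macrophage barcodes, which are not known to make Apoa4, it was found in 0.820% at 0 h (2 of 244) and in 3 of 17 at 48 h, with unthinned median depths of 2300.5 and 5065 non-mt UMIs. Without thinning the share over 30% mt was 11.7% at 0 h and 95.3% at 48 h. Apoh went the other way, from 86.6% to 52.3% over 30% mt.

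The spread between barcodes also differed. In 0 h barcodes under 2% mt the variance of the thinned Apoe count was 1.03 times its mean, close to the value of 1 that counting alone gives, and it was 1.64 times over 30% mt. For Apoa4 at 48 h the factor was 1.63 over 30% mt and 1.06 under 2%. At 0 h over 30% mt it was 2.07 for Apoa1 and 1.10 for Apoc3. Barcodes over 30% mt thus varied more among themselves in Apoe and Apoa1 than those under 2% mt varied in Apoe.

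Marker genes were then used to find barcodes of cells other than hepatocytes. At 0 h, 244 barcodes carried macrophage markers, 144 endothelial markers and 91 stromal markers, against 17, 32 and 15 at 48 h. Further classes held at most 14 barcodes each and are not described, and 165 barcodes at 0 h and 56 at 48 h that passed for more than 1 class were left out. The 5 macrophage genes kept for checking (Cd68, Fcna, Folr2, Cd163 and Aif1) were all higher in macrophage barcodes, summing to 1938 CPM at 0 h against 5.90 CPM over 30% mt, 6.31 CPM under 2% mt, 41.1 CPM in endothelial and 447 CPM in stromal barcodes. Hepatocyte reference genes such as Alb were present in all 3 classes.

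Apoe stood at 15042 CPM (14736 to 15354) in the 0 h macrophage barcodes, below its 39883 CPM over 30% mt (log2 ratio -1.41, -1.44 to -1.38) and also below its 18393 CPM under 2% mt (-0.29, -0.32 to -0.26). It was at 13970 CPM (13561 to 14388) in endothelial and 15424 CPM (14861 to 16003) in stromal barcodes. Of the 10 members, 8 were at least 2-fold lower in macrophage barcodes than over 30% mt, beside 9.46% of all genes, and none was at least 2-fold higher, beside 31.2%. Under TMM all 10 were at least 2-fold lower, beside 23.8% of all genes, and none higher, beside 13.8%. Apoe led the order of members in macrophage barcodes, whereas Apoa2 led it in endothelial and stromal ones with an interval that overlapped that of Apoe. Its share of member UMIs was 28.6% (28.1 to 29.1%) in macrophage, 24.3% (23.73 to 24.98%) in endothelial and 24.5% (23.7 to 25.3%) in stromal barcodes. In unclassed barcodes it was 28.5% over 30% mt, 25.9% at 2 to 30% and 23.4% under 2% mt.

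The mt share differed between classes, so each class was also set beside barcodes without a class in the same mt range. Below 2% mt, Apoe in the 54 macrophage barcodes was at 96.2% (92.2 to 100.3%) of its level in the unclassed barcodes, while the other 9 members together were at 76.7% (74.7 to 78.7%) and 10 hepatocyte reference genes at 72.4% (70.9 to 73.9%). In the 65 endothelial barcodes the 3 values were 81.3%, 78.9% and 78.5%, and in the 63 stromal barcodes 82.6%, 81.1% and 80.8%. Apoe thus stood above the sum of the other members in macrophage barcodes, and its interval overlapped theirs in the other classes. Of single members in macrophage barcodes, Apoa4 (6 UMIs), Apom (31 UMIs) and Apoa5 (88 UMIs) had intervals wide enough to reach that of Apoe, and the other 6 did not. At 2 to 30% mt the gap was smaller: Apoe was at 58.7% (57.3 to 60.1%) in 186 macrophage barcodes, the other 9 members at 50.4% and the reference genes at 54.2%. Apoc3 at 58.0% (55.2 to 61.0%) and Apoa5 at 56.7% (49.8 to 64.3%) were level with Apoe there. The intervals of Apoh at 55.5% (51.7 to 59.5%) and Apom at 46.8% (37.3 to 58.0%) also reached that of Apoe, and those of the remaining members did not. Mt share was not matched further within this range, and all 244 macrophage barcodes had a median of 2.79%. Unclassed Apoe stood at 18983 CPM at 2 to 5% mt and 33083 CPM at 20 to 30%, and Apoc3 at 5936 CPM and 5860 CPM. The 424 unclassed barcodes at 20 to 30% mt held 41159 of the 105069 Apoe UMIs of the range. The part of the mt share in the smaller gap was not tested.

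**Figure D4:**
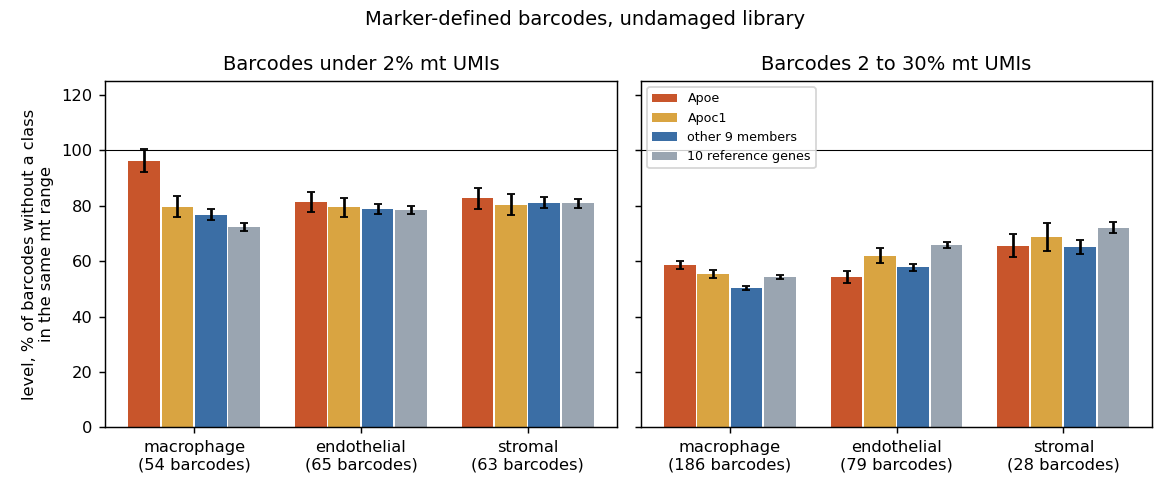
Summed levels in macrophage, endothelial and stromal barcodes of the 0 h library as a percentage of unclassed barcodes in the same mt range, for Apoe, Apoc1, all members but Apoe, and 10 hepatocyte reference genes (bars, from 0) with exact 95% intervals. Below 2% mt the macrophage bar of Apoe, at 96.2%, stands above the other macrophage bars, and the endothelial and stromal bars lie between 78.5% and 82.6%.

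The macrophage barcodes of 0 h were further divided into 2 equal sets of 122 by their share of assigning markers, which summed to 7343 CPM in the lower and 17532 CPM in the upper set. Apoe stood at 16135 CPM (15664 to 16615) in the lower and 14134 CPM (13733 to 14544) in the upper set. The other 9 members summed to 45941 CPM and 30658 CPM, and the reference genes to 75187 CPM and 49276 CPM. Apoe therefore differed less between the sets than the other members did. At 48 h, in sets of 8 and 9 barcodes, Apoe stood at 10347 CPM and 6413 CPM and the other members at 45139 CPM and 24614 CPM, and the reference genes at 68804 CPM and 29966 CPM. All 3 were lower in the upper set, Apoe by the smallest proportion of the 3 as at 0 h, but on 17 barcodes and with no test of the difference. Of single members at 48 h, Apoc1 (9392 CPM and 6738 CPM) and Apom (672 CPM and 477 CPM, on 31 and 22 UMIs) were lower by a smaller proportion than Apoe. The remaining members were lower by a larger one.

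At 48 h Apoe stood at 8379 CPM (7799 to 8991) in the 17 macrophage barcodes, 12888 CPM (12464 to 13323) in the 32 endothelial and 10509 CPM (9833 to 11220) in the 15 stromal barcodes. At 2 to 30% mt it was at 38.8% (35.5 to 42.4%) of the unclassed barcodes in 14 macrophage barcodes, below the other 9 members at 51.3% and near the reference genes at 36.7%. Mt share was not matched further within this range. Its median was 15.5% in the unclassed barcodes there and 5.99% in all 17 macrophage barcodes. Unclassed Apoe stood at 12203 CPM at 2 to 5% mt and 19910 CPM at 20 to 30%. Over the same bins Apob went up from 1293 CPM to 2006 CPM and Apoc1 down from 14890 CPM to 11273 CPM. The part of the mt share in the order of these percentages was not tested. The Apoe share of member UMIs in macrophage barcodes was 19.4% (18.2 to 20.6%), above the 12.8% under 2% mt and below the 29.8% over 30% mt. Apoa4, at 13.1 CPM on 8 UMIs in macrophage barcodes at 0 h, stood at 629 CPM (477 to 813) at 48 h. How far RNA free in the droplets or hepatocytes in the same droplet contributed to the members in these classes was not tested.

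Within barcodes over 30% mt, members were compared between zones of the liver lobule, since hepatocytes near the portal vessels and those near the central vein carry different transcripts. Barcodes with at least 10 UMIs of known zonal genes, 2961 of 3863 at 0 h and 746 of 751 at 48 h, were ranked by the perivenous share of these UMIs (such as Cyp2e1 and Glul against Cyp2f2 and Hal), none of them a member, and the upper 25% of those ranked (perivenous barcodes) were compared with the lower 25% (periportal barcodes), which gave 752 and 820 barcodes at 0 h, ties included. Apoa4 was the most periportal member, at 28.9 CPM in perivenous and 139 CPM in periportal barcodes at 0 h (log2 ratio -2.24, -2.88 to -1.70) and at 882 CPM and 3322 CPM at 48 h (-1.91, -2.02 to -1.81). Apoa5 followed at -0.55 (-0.66 to -0.44) at 0 h and -1.02 (-1.14 to -0.91) at 48 h. Apoc1 was higher in perivenous barcodes in both libraries, at 0.24 (0.21 to 0.26) and 0.55 (0.51 to 0.59).

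On the CPM scale Apoe was higher in perivenous barcodes at 0 h and in periportal barcodes at 48 h. The other scalings were not applied to the zonal ratios. It stood at 48188 CPM in perivenous and 38136 CPM in periportal barcodes at 0 h (log2 ratio 0.34, 0.32 to 0.35), and at 25076 CPM and 28697 CPM at 48 h (-0.19, -0.22 to -0.17). Apoh was at 0.44 (0.39 to 0.50) at 0 h and -0.08 (-0.18 to 0.02) at 48 h. The 2 sets were alike in mt share at 0 h (medians 46.5% and 46.8%) but at 48 h the perivenous barcodes had more mt UMIs (59.996% against 55.136%) and fewer non-mt UMIs (medians 3515 and 7950), and the part of these in the Apoe values was not tested.

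**Figure D5:**
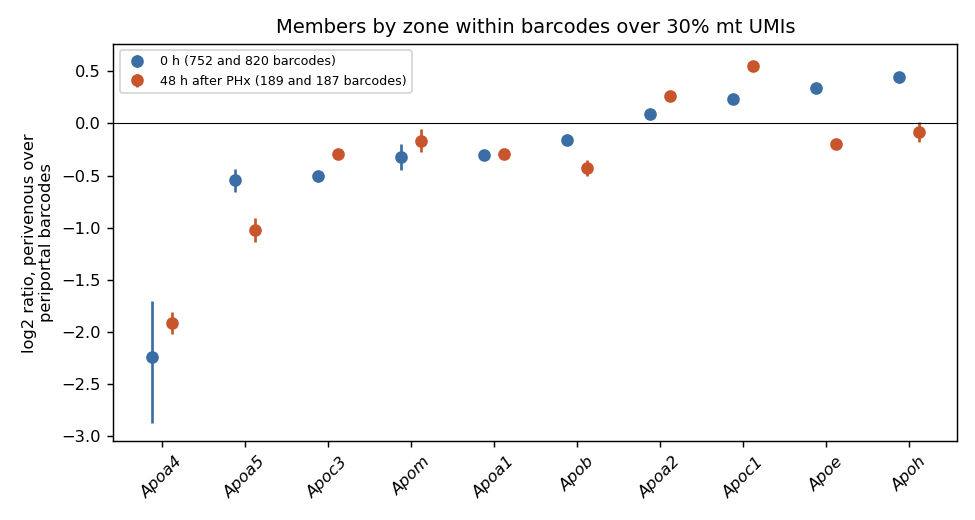
Log2 ratio of each member between perivenous and periportal barcodes (upper and lower 25% of ranked barcodes by zonal genes) over 30% mt, at 0 h and 48 h after PHx, with exact 95% conditional binomial intervals. Apoa4 lies lowest in both libraries, and Apoe is at 0.34 at 0 h and -0.19 at 48 h.

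The 75 barcodes in the upper 10% by S and M phase transcripts (such as Mki67 and Top2a) among the 751 of 48 h over 30% mt were set beside the other 676. Apoa5 was lower in them, at 914 CPM against 1659 CPM (log2 ratio -0.86, -0.98 to -0.74), as was Apoe, at 21815 CPM against 28240 CPM (-0.37, -0.40 to -0.35). Apoa4 differed little (-0.11, -0.18 to -0.04), and the intervals of Apom and Apoc1 spanned 0. The upper 10% were deeper, with a median of 6994 against 4128 non-mt UMIs, while the median mt share was 56.2% against 57.2%.

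In a list of other apolipoprotein genes that also held the receptor gene Apobr, 8 had enough UMIs over 30% mt (median log2 ratio -0.04). Of these, 1 was at least 2-fold higher at 48 h, beside 30.5% of all genes, and 2 at least 2-fold lower, beside 5.22%. Under 2% mt 3 of 8 were higher, beside 22.5% of all genes, and 1 lower, beside 20.5% (median 0.15). Lower over 30% mt were Apon (1198 CPM at 0 h and 404 CPM at 48 h) and Saa4, a constitutive serum amyloid A of high-density lipoprotein (324 CPM and 131 CPM). Apoc4, next to Apoe, stood at 3646 CPM and 3028 CPM over 30% mt and at 2061 CPM and 4990 CPM under 2% mt. The gene past 2-fold higher over 30% mt was Apoc2, the activator of lipoprotein lipase, at 2.43 CPM on 14 UMIs and 11.9 CPM on 59 UMIs. It is uncertain, since a second Apoc2 gene entry that reaches into Apoc4 overlaps it.

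Genes that act with the apolipoproteins were set beside the same shares of all genes over 30% mt, 30.5% at least 2-fold higher and 5.22% lower. Under 2% mt 22.5% of all genes were at least 2-fold higher and 20.5% lower. Of 18 genes of lipoprotein assembly and secretion, 3 were at least 2-fold higher and 1 lower over 30% mt (median log2 ratio 0.04), and under 2% mt none was higher and 7 were lower (median -0.73). The gene lower over 30% mt was Ces1d, a lipase of the endoplasmic reticulum (892 CPM at 0 h and 402 CPM at 48 h). The others named by the rule were Sar1b, a GTPase of the vesicles that export large particles (-0.89, -1.02 to -0.77), Sec24c, a coat protein of these vesicles (1.14), and Acat2 (1.38). Acat2 makes acetoacetyl-CoA and is not itself an assembly gene, although it was listed and is 1 of the 3 counted as higher. Of 11 genes of plasma remodelling with enough UMIs, 1 was higher and 4 lower over 30% mt (median -0.07), and of 13 under 2% mt 1 was higher and 5 lower (median -0.77). Angptl8, an inhibitor of lipoprotein lipase in plasma, went from 44.6 CPM to 296 CPM (2.73, 2.54 to 2.93), whereas Lcat, which esterifies cholesterol on high-density lipoprotein, went from 639 CPM to 271 CPM (-1.24, -1.33 to -1.15) and Lpl, lipoprotein lipase itself, from 43.6 CPM to 12.5 CPM. Lipg, endothelial lipase, was at 4.34 CPM and 7.07 CPM, with an interval that spanned 0.

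Of 11 measured uptake receptors and their regulators, 1 was at least 2-fold higher over 30% mt and none lower (median 0.17). Under 2% mt 13 had enough UMIs, of which none was at least 2-fold higher and 7 were lower (median -1.24). The sorting receptor Sort1 had a log2 ratio of -0.93. The scavenger receptors Stab1 (1.10) and Cd36 (0.84) lay at the other end, both on under 100 UMIs per library. Of 20 transcription factors of apolipoprotein genes, 7 were at least 2-fold higher and 1 lower (median 0.68), near the all-gene median of 0.55. Under 2% mt 1 of 20 was higher and 5 were lower (median -0.09). Foxo1, a factor active in fasting, had a ratio of 1.70 (1.32 to 2.10) and Hnf4a, a main regulator of hepatocyte genes, 1.43 (1.29 to 1.58), while the clock repressor Nr1d1 was at -1.30 and Foxa2 at -0.70. Under 2% mt the ratio was 0.56 for Hnf4a and 0.07 for Foxo1.

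The hepatocyte reference genes gave the scale of change in other hepatocyte transcripts. Over 30% mt 2 of the 10 were at least 2-fold higher and none lower (median -0.19), and under 2% mt 2 were higher and 3 lower (median 0.12). Fabp1, a fatty acid binding protein, had a ratio of 1.92 (1.89 to 1.96) and the haem carrier Hpx 1.32 (1.30 to 1.34), and Fgb and Serpina1c were lowest at -0.55 and -0.51. Alb was at 0.21 over 30% mt, while under 2% mt it stood at 47922 CPM at 0 h and 22177 CPM at 48 h.

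Patterns of levels were compared over 14 barcode groups of the 2 libraries among 5529 genes, as a description in which groups of 1 library share its depth. The gene most like Apoe was Vtn (Pearson's r of log2 levels with 1 CPM added, 0.98), followed by Mst1 (0.97) and Slc38a3 (0.96). For Apob it was Trf (0.99), for Apom Orm1 (0.97), for Apoc3 Pxmp2 (0.98), for Apoa4 Alas1 (0.95), for Apoa5 Itih4 (0.96), for Apoh 1300017J02Rik (0.97), for Apoa2 Mettl7b (0.95), for Apoa1 Hp (0.93) and for Apoc1 Hsd17b2 (0.88). Between members r was highest for Apob and Apoh (0.96) and lowest for Apoa4 and Apoh (-0.65). The neighbours Apoe and Apoc1 had an r of 0.50, and Apoa1 with Apoc3, Apoa4 and Apoa5 had 0.74, 0.66 and 0.58.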

How the data were processed

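Hepatocyte scRNA-Seq libraries of 0 h and 48 h after PHx (1 each, grouped by the time point in the labels) were made with 10x Genomics version 2 chemistry. The authors ran Cell Ranger, version not given in the sources used here, and per the submitters' processing notes used mm10. They deposited UMI counts per gene and barcode, whole numbers without normalization (27998 genes, 13 of them mt). Barcodes had at least 1183 UMIs at 0 h and 4578 at 48 h. The members and gene lists were chosen with earlier results of these data known.

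No further filter was applied to barcodes, except that those with under 10 zonal UMIs (902 at 0 h and 5 at 48 h over 30% mt) were left out of the zonal comparison. A barcode was placed in a cell class when at least 3 of its assigning markers (10 for most classes; 3 T cell markers had no entry) summed to at least 6 UMIs and 10 times the number expected from the profile under 2% mt. Scrublet, run through Scanpy 1.11.5, called 0 of 6843 barcodes at 0 h and 0 of 1075 at 48 h, so it was taken not to have worked and doublets were not removed. Counts were summed per group and divided by non-mt UMIs, without added UMIs in levels and with 0.5 UMIs added to both sides of a log2 ratio. Intervals were exact (Poisson for levels, conditional binomial for ratios, Clopper-Pearson for shares, SciPy 1.17.1). The ratio intervals were run on simulated Poisson counts, which hold the counting error they assume but not the spread between barcodes. TMM factors came from edgeR 4.0.16 as an alternative. Genes with at least 50 UMIs over both groups were counted, and 2-fold was the size used.

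The text names all members, Apoc2, Apoc4, the reference genes with the highest and lowest ratios and Alb, and in each list the 2 highest and 2 lowest ratios over 30% mt among genes with at least 50 UMIs, except that 1 gene is not reported here. It also names the genes most like each member. Gene coordinates were matched by identifier to GENCODE M21 for all 10 members. Bulk RNA-Seq and chromatin data of the study were not analysed here.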

Additional observations from a re-analysis of the deposited data

Results flagged for a closer look

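Apoa1, Apoa2 and Apoa5 differed between the libraries in opposite directions in the 2 mt groups. Each interval excluded 0, but the difference between the mt groups was not tested, since each group comes from the same 2 libraries. The log2 ratio of 48 h over 0 h over 30% mt minus that under 2% mt was -1.26 for Apoa1, -1.03 for Apoa2 and 1.22 for Apoa5. The opposition of Apoa1 held under the other scalings. Apoa2 was negative in both mt groups with the 20 most abundant genes left out of the totals and under TMM, and Apoa5 was negative in both under TMM. On the CPM scale the other 7 members had 1 direction in both groups, but under TMM Apoc3 (-0.29 over 30% mt and 0.62 under 2%) and Apom (-0.20 and 1.99) had opposite ones, and without the 20 most abundant genes Apoc3 did too (-0.016 over 30% mt).

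On the CPM scale, the only one used for zones, Apoe had opposite zonal directions in the 2 libraries. Its log2 ratio of perivenous over periportal barcodes was lower at 48 h than at 0 h by a difference of -0.53, which was not tested. These sets of barcodes at 48 h differed in depth and mt share, as given with the zonal values.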

How the results depend on the processing

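Of 70 recomputed main values, 36 stayed within the counting interval (counts of genes: within 1.5 times), 34 moved out of it, and none changed sign. Of 400 recomputed member values, 246 stayed, 145 moved and 9 changed sign. Both totals include the removal of Scrublet calls, which took out no barcode, so its values stayed by construction. The detection shares and counts of genes among the main values could not change sign. Intervals of counting error are narrow here, so even a small move can leave them, but some moves were large, as the values below show.

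The member medians of 48 h over 0 h (-0.43 over 30% mt and -0.02 under 2%) were -0.71 and -0.31 without the 20 most abundant genes, -0.98 and -0.31 under TMM, and -0.54 and -0.0060 as means of single-barcode CPM. Over 30% mt the median was also -0.45 over 50% mt and -0.41 at 1000 or more non-mt UMIs. The medians of over 30% against under 2% mt (0.65 at 0 h and 0.65 at 48 h) were 0.73 and 0.74, 0.48 and 0.11, and 0.68 and 0.57 under these 3 scalings, 0.61 and 0.60 with the limit at 20% mt, and 0.76 at 0 h over 50% mt. TMM shifted every log2 ratio by -0.55 and -0.29 for 48 h over 0 h, and -0.17 at 0 h and -0.54 at 48 h for over 30% against under 2% mt.

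Apoe in macrophage barcodes against over 30% mt (-1.41 at 0 h, -1.70 at 48 h) was -1.73 and -1.92 without the 20 most abundant genes, -2.12 and -2.17 under TMM, and -1.49 and -1.91 with a stricter class rule of 20 times expected and 12 UMIs. It was -1.36 at 0 h against over 20% mt and -1.83 at 48 h against over 50% mt. Against barcodes under 2% mt it was -0.29 and -0.29, and against 2 to 30% mt, an alternative chosen after seeing the data, -0.69 and -1.07. The comparison group thus set the size of this value.

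Signs changed without the 20 most abundant genes for Apoc3 over 30% mt (48 h over 0 h, -0.016), Apoa2 under 2% mt (-0.20), Apoc3 in over 30% against under 2% mt at 0 h (0.029) and Apom at 48 h (0.023). Under TMM they changed for Apoa5 (-0.26), Apoc3 (-0.29) and Apom (-0.20) over 30% mt, Apoa2 under 2% mt (-0.21), and Apoa1 in over 30% against under 2% mt at 48 h (-0.12). All of these lie within the shifts that the scalings give to all genes.

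Apoa4 was detected in 56.5% of 48 h barcodes over 30% mt at 500 UMIs, 78.3% at 1000 and 95.3% unthinned. With no minimum of UMIs, 5003 genes in place of 2630 were at least 2-fold higher and 1682 in place of 450 at least 2-fold lower over 30% mt, and 6255 in place of 2383 higher under 2% mt. Leaving out the 148 shared barcode sequences, also chosen after seeing the data, kept the 6 values of the libraries, mt groups and macrophages inside their counting intervals, as did keeping class barcodes in the mt groups for the 4 values it touches. Removing Scrublet calls changed nothing, since there were none. No paired analysis was possible because each group had 1 library and no replicate number.

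Depth limited Apoa4 and Apom in the smaller classes, where levels rest on few UMIs (8 and 120 in macrophage barcodes at 0 h). The number of mice, 1 per library, limited every comparison between 0 h and 48 h.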

Other observations

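Apol9a, a weakly expressed apolipoprotein L gene, stood at 27.6 CPM at 0 h and 52.1 CPM at 48 h over 30% mt (log2 ratio 0.92, 0.63 to 1.21) and had a ratio of 1.43 under 2% mt. In a single cholangiocyte barcode of 48 h, with 18967 non-mt UMIs, Apoe made up 58.5% of the member UMIs, and members made up 2.02% of all non-mt UMIs, and 1 barcode allows no comparison.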
